A study of Homo sapiens with 6 samples.

Results

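The 9 genes described here make, carry and use activated sulfate in human cells, and their RNA was read in KM12, an established line of human colorectal cancer cells. They were chosen by name from the deposited table of 27134 genes: PAPSS1 and PAPSS2 for synthesis, SLC26A2, SLC35B2 and SLC35B3 for transport, BPNT1 and BPNT2 (also written IMPAD1) for removal of the spent cofactor, and SULT1A1 and SULT2B1 for transfer of sulfate in the cytosol. All 9 were found, each in 1 row. RNA was sequenced from 3 libraries of KM12 cells overexpressing CDO1 and 3 libraries of mock control KM12 cells, all at passages 10 to 15. The labels give neither the vector, nor whether the cells were a pool or 1 clone, nor whether each library had a culture of its own. The p-values therefore cover only the spread among these 6 libraries, and that spread may be technical.

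Sulfate is inert until it is coupled to adenosine as 3′-phosphoadenosine 5′-phosphosulfate (PAPS). Cells take up sulfate or make it from cysteine, and CDO1, cysteine dioxygenase type 1, catalyses the oxidation that opens that route. PAPS synthases build PAPS in the cytosol and nucleus, SULT enzymes spend it there on hormones, drugs and sterols, and Golgi sulfotransferases spend it on mucins and proteoglycans, of which the intestinal epithelium makes much. Each transfer leaves the nucleotide PAP, an inhibitor of sulfotransferases, which phosphatases degrade.

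Reads assigned to genes totalled 18544419 to 22198173 in the CDO1 libraries and 17516640 to 22159756 in the mock libraries. CDO1 itself (ENSG00000129596) had 2483.91, 2336.28 and 2332.78 normalised counts (reads divided by a size factor for each library) in the CDO1 libraries, against 68.11, 0 and 0 in the mock libraries. The CDO1 libraries thus carried far more CDO1 reads, with mock replicate 1 the only mock library with any. In limma, on log2 of the normalised count plus 1, its log2 fold change was 9.18 ± 0.94 (SE; adjusted p = 2.74e-07), and it was 11.22 once mock replicate 1 was left out and 8.16 without mock replicate 2 or 3. With 2 mock libraries at 0 the fitted change in CDO1 level depends on the pseudocount and the tool. It was 9.85 with a pseudocount of 0.5, 7.61 with one of 5, 6.57 in edgeR (adjusted p = 6.85e-10) and 6.71 in DESeq2 (adjusted p = 0.0249), and the group means differed 105-fold. A count of 0 reads allows up to 2.93 normalised counts in mock replicate 2 and 3.39 in mock replicate 3 (3 reads, counting error only). The authors' deposited table gives CDO1 a log2 fold change of 0.089, with an adjusted p of 0.416. Of 7 markers of colorectal epithelium 6 rose, against 11.3% of all genes tested. Their summed level was 189899 to 203897 in CDO1 libraries against 142211 to 150986 in mock libraries. Most of it was KRT8 (118502 to 130882 against 83711.8 to 89902.1). Of 5 fibroblast markers 2 had a row (COL1A1 and PDGFRB, summed 130 to 151 against 204 to 293). COL1A1 fell (log2 fold change -1.12, limma, adjusted p = 1.69e-06), and PDGFRB did not pass (0.32, adjusted p = 0.497). The endothelial markers PECAM1, VWF and CDH5 summed to 41.33 to 72.25 against 26.33 to 34.95. PECAM1, at no more than 6.57 normalised counts, rose (limma, adjusted p = 0.0259), and VWF and CDH5 did not pass. The deviation of single libraries from the gene means had a Spearman's rho with GC content of -0.34 to 0.0031 in CDO1 libraries and -0.24 to 0.53 in mock libraries across 10926 genes. For the log2 fold change of CDO1 over mock rho was -0.23, so the comparison of groups carries a GC trend. With the GC trend removed the log2 fold change was 0.70 for PAPSS2, 0.75 for SULT2B1 and -0.40 for SULT1A1, and the same calls of these genes were made. The part of the marker shifts in the results was not tested.

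PAPSS2 and SULT2B1 were higher and SULT1A1 was lower in cells overexpressing CDO1, and the other 6 genes did not pass the threshold (limma, adjusted p under 0.05 over 21775 genes). PAPSS2 averaged 1.66 times and SULT2B1 1.58 times the mock level, and SULT1A1 0.72 times. Of all genes tested, 24.0% passed, 11.3% as higher and 12.7% as lower in CDO1 libraries. A count of 3 of 9, with 2 higher and 1 lower, is therefore near what the whole table gave. Fitted alone, the 14989 genes with a mean of at least 10 normalised counts gave 2612 higher and 2748 lower. All 9 genes are among them, and 2 were again higher and 1 lower. Among larger changes the table was less balanced, with 501 genes higher and 1504 lower of all genes past the threshold at 1.5-fold or more, where the 9 genes had 2 higher and 0 lower, and 174 higher and 985 lower at 2-fold or more. The median log2 fold change was 0.0075 over the 9 genes and -0.0035 over all genes tested. The groups did not overlap in 4 of the 9 genes, against 37.1% of all genes tested. In bulk RNA fewer cells that express a gene and less RNA per cell cannot be told apart.

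**Figure D1:**
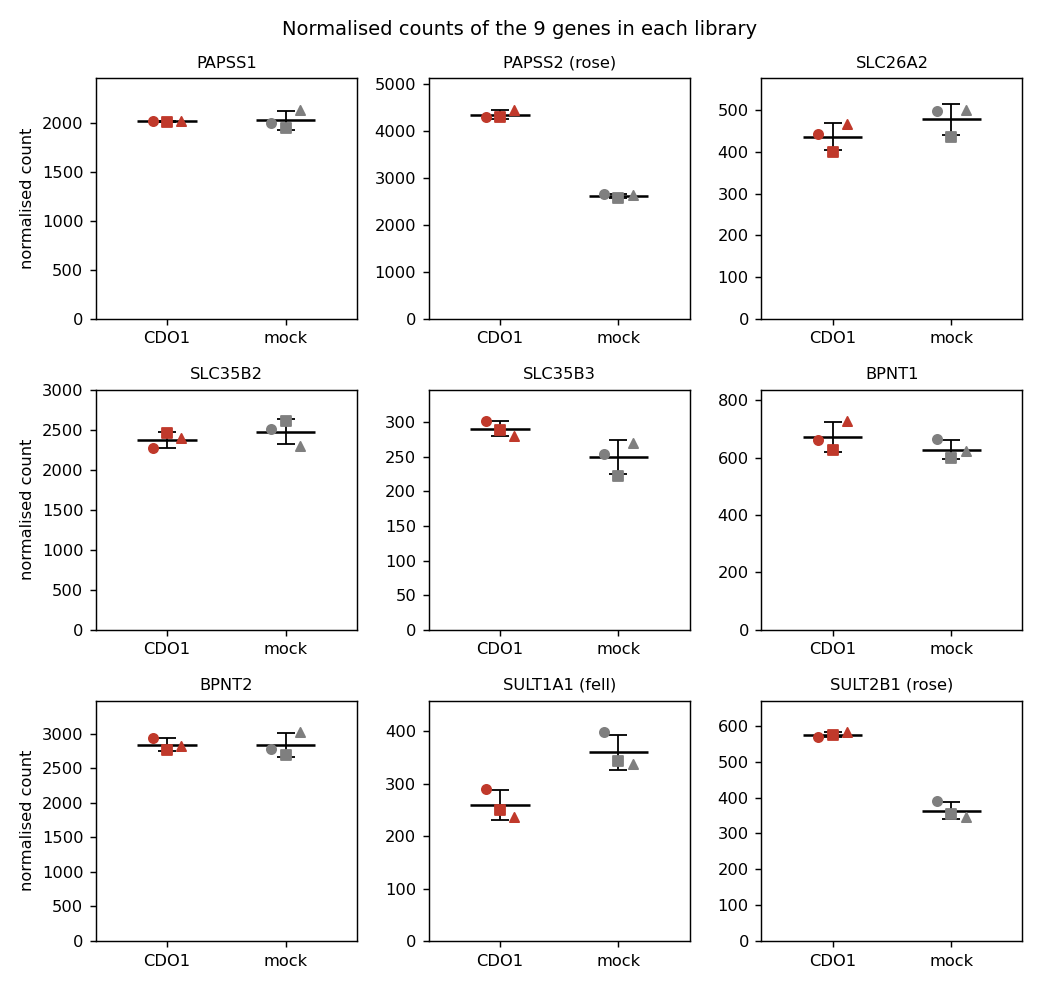
Normalised count (linear axis from 0) of each of the 9 genes in every library, CDO1 in red and mock in grey, with circles, squares and triangles for replicates 1, 2 and 3; black lines are group means and bars 1 SD (n = 3). PAPSS2 and SULT2B1 lie higher and SULT1A1 lower in CDO1 libraries with no overlap, and SLC35B3 also does not overlap but did not pass the threshold.

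The PAPS synthases are bifunctional enzymes that join sulfate to ATP and then phosphorylate the product. PAPSS1 is encoded at chr4:107590276-107720452 and PAPSS2 at chr10:87659613-87747705 (GRCh38). Their coding sequences share 72.3% of 1842 aligned bases, and the longest run they have in common is 15 bases. The 60 aligned coding bases in which they are most alike are shown because they bear on whether reads of the paralogs could be confused. Capitals mark the 8 bases that differ, and positions count from the start codon (1303 to 1362 in PAPSS2, 1318 to 1377 in PAPSS1, GENCODE 29).
PAPSS2: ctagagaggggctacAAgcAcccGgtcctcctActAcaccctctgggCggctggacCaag
PAPSS1: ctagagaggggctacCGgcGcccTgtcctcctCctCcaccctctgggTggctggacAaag
No stretch of 50 bases in any annotated transcript of PAPSS1 or PAPSS2 occurred, in the same orientation, in a transcript of a gene at another position.

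PAPSS2 (ENSG00000198682) had 4286.45, 4300.34 and 4448.81 normalised counts in the CDO1 libraries, against 2646.42, 2572.81 and 2625.71 in the mock libraries. Every CDO1 library lay above every mock library, by far more than the spread within a group. The group means were 4345 ± 90.0 with CDO1 and 2615 ± 38.0 in mock (SD, n = 3), and the log2 fold change was 0.73 ± 0.05 (SE; limma, adjusted p = 7.46e-10), with a 95% interval of 0.63 to 0.84. Among 10941 genes with a mean of at least 100 normalised counts, 104 had a larger log2 fold change. An annotated antisense transcript, AL138767.1, overlaps 146 bases of PAPSS2 exons, its level was not analysed here, and the libraries' strand setting is not stated.

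PAPSS1 (ENSG00000138801), the paralog expressed in most tissues, had 2022.43, 2014.41 and 2024.19 normalised counts with CDO1, against 2006.54, 1949.60 and 2139.26 in mock. The CDO1 values fell inside the range of the mock values. The log2 fold change was -0.0071 ± 0.05 (SE), and its 95% interval ran from -0.12 to 0.11 (limma, adjusted p = 0.947), so that a mean of 0.920 to 1.08 times the mock level lay within it. Its spread in CDO1 libraries was 0.258% of the mean, the smallest of the 9 genes in that group.

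Because PAPSS2 and PAPSS1 were read in the same library, their ratio does not depend on library scaling. The PAPSS2 to PAPSS1 ratio of normalised counts was 2.12, 2.13 and 2.20 in the CDO1 libraries and 1.32, 1.32 and 1.23 in the mock libraries. The groups did not overlap, and the log2 ratio was higher by 0.74 with CDO1 (two-sided exact permutation test, p = 0.1, the smallest that 3 against 3 allows, 0.2 adjusted over the 4 ratios tested). Per kilobase of the longest protein-coding transcript, PAPSS2 made up 59.8 ± 0.462% of the PAPS synthase level with CDO1 and 47.1 ± 1.04% in mock (SD, n = 3). The summed level of the synthases was 1840 ± 23.9 per kilobase with CDO1 and 1406 ± 41.4 in mock, 1.31-fold higher. With the merged length of all annotated exons in place of that transcript the PAPSS2 share was 64.7% and 52.3%, so which synthase was ahead in mock cells depends on the length used.

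**Figure D2:**
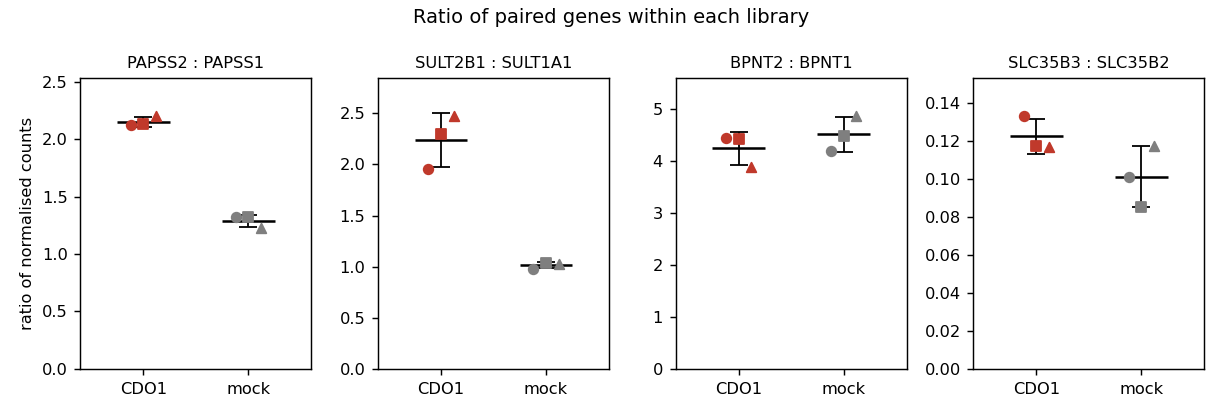
Ratio of normalised counts within each library (linear axes from 0) for 4 gene pairs, CDO1 in red and mock in grey, with shapes for replicates 1 to 3, lines at group means and bars of 1 SD (n = 3). The PAPSS2 to PAPSS1 and SULT2B1 to SULT1A1 ratios lie higher in every CDO1 library than in any mock library, and the other 2 ratios overlap.

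Sulfate and PAPS have to cross membranes, and none of the 3 transporters passed the threshold. SLC26A2, a sulfate and chloride exchanger of the plasma membrane whose loss causes chondrodysplasia (ENSG00000155850, chr5:149960737-149993455), had 443.73, 400.69 and 466.56 normalised counts with CDO1, against 497.38, 434.98 and 501.16 in mock. The ranges overlapped, and the log2 fold change was -0.13 with a 95% interval of -0.30 to 0.04 (limma, adjusted p = 0.297). TIGD6, on the opposite strand, shares 246 bases of exon with SLC26A2 and averaged 48.4 normalised counts.

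SLC35B2, which carries PAPS into the Golgi (ENSG00000157593, chr6:44254096-44257890), had 2267.96, 2459.99 and 2396.15 normalised counts with CDO1, against 2512.89, 2609.87 and 2302.17 in mock. Its groups overlapped too, with a log2 fold change of -0.06 and a 95% interval of -0.18 to 0.06 (limma, adjusted p = 0.526). SLC35B3, the less abundant Golgi PAPS transporter (ENSG00000124786, chr6:8411463-8435611), had 301.74, 289.02 and 280.12 with CDO1, against 254.51, 222.37 and 270.38 in mock. All 3 CDO1 values lay above the highest mock value, yet the gap between the closest libraries was smaller than the spread within mock. Its log2 fold change was 0.22 ± 0.09 (SE; limma, adjusted p = 0.0943), and it passed without mock replicate 3 (0.29, adjusted p = 0.0386). The SLC35B3 to SLC35B2 ratio was 0.122 ± 0.00915 with CDO1 and 0.101 ± 0.0161 in mock (SD, n = 3; exact permutation p = 0.2).

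The phosphatases that clear PAP did not pass the threshold. BPNT1, the cytosolic enzyme, which lithium inhibits (ENSG00000162813, chr1:220057482-220090462), had 661.65, 626.22 and 728.31 normalised counts with CDO1, against 664.07, 598.83 and 622.21 in mock. The log2 fold change was 0.10 with a 95% interval of -0.06 to 0.25 (limma, adjusted p = 0.395). BPNT2, its Golgi counterpart (ENSG00000104331, chromosome 8), had 2938.49, 2765.44 and 2824.13 with CDO1, against 2779.95, 2687.90 and 3023.93 in mock, so that mock replicate 3 was the highest library of all. Its log2 fold change was 0.0075, with a 95% interval of -0.11 to 0.12 (limma, adjusted p = 0.945), and the sign turned under several settings. The BPNT2 to BPNT1 ratio was 4.25 ± 0.318 with CDO1 and 4.51 ± 0.337 in mock (SD, n = 3; exact permutation p = 0.4). XRN1 and XRN2, exoribonucleases that PAP inhibits, had log2 fold changes of 0.11 and 0.07 and did not pass either (limma, adjusted p = 0.241 and 0.459).

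**Figure D3:**
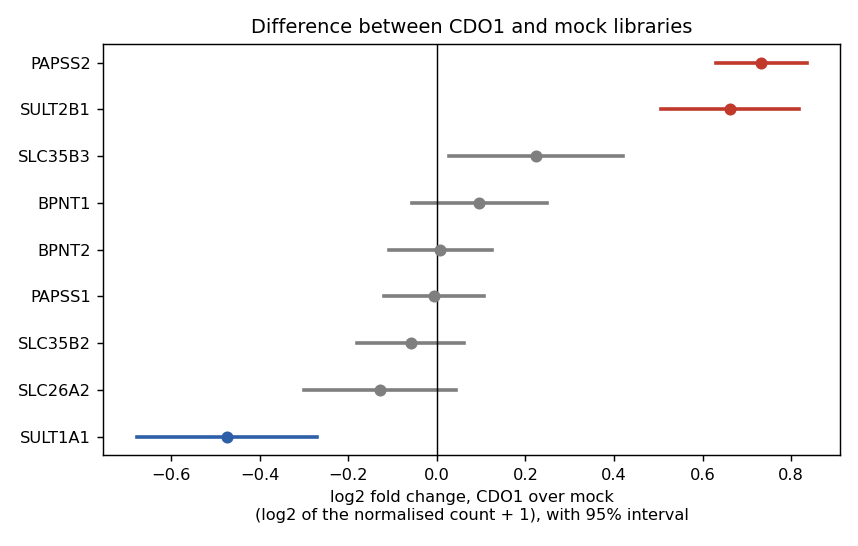
Log2 fold change, CDO1 over mock, of each of the 9 genes with its 95% interval from limma; red marks genes that rose, blue those that fell and grey those that did not pass. PAPSS2 (0.73) and SULT2B1 (0.66) stand at the high end and SULT1A1 (-0.47) at the low end, and the intervals of PAPSS1 and BPNT2 lie within 0.13 of 0.

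The cytosolic sulfotransferases went in opposite directions. SULT2B1, which sulfates cholesterol and other 3β-hydroxysteroids (ENSG00000088002, chr19:48552075-48599425), had 567.98, 575.86 and 583.20 normalised counts in the CDO1 libraries, against 389.84, 355.01 and 347.30 in the mock libraries. The CDO1 libraries lay close together and far above the mock libraries. Means were 576 ± 7.61 with CDO1 and 364 ± 22.7 in mock (SD, n = 3), and the log2 fold change was 0.66 ± 0.07 (SE; limma, adjusted p = 1.09e-06), with a 95% interval of 0.51 to 0.82. Of genes with a mean of at least 100, 153 had a larger log2 fold change.

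SULT1A1, which sulfates small phenols and many drugs (ENSG00000196502, chr16:28605196-28623625), had 290.89, 250.71 and 236.03 normalised counts with CDO1, against 398.80, 344.28 and 337.12 in mock. Here every CDO1 library lay below every mock library. Means were 259 ± 28.4 with CDO1 and 360.1 ± 33.7 in mock (SD, n = 3), and the log2 fold change was -0.47 ± 0.10 (SE; limma, adjusted p = 0.001), with a 95% interval of -0.68 to -0.27. Among genes with a mean of at least 100, 6.96% had a lower log2 fold change. The SULT2B1 to SULT1A1 ratio was 1.95, 2.30 and 2.47 with CDO1 and 0.978, 1.03 and 1.03 in mock, a difference of 1.14 on the log2 scale (exact permutation p = 0.1, the smallest possible, 0.2 adjusted over 4 ratios).

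SULT1A1 has close paralogs, also on chromosome 16, and shares 471 bases of exon with the pseudogene AC020765.5 on the same strand, so its count is uncertain to the extent that reads could be assigned to any of them. Its coding sequence matched that of SULT1A2 at 96.8% and that of SULT1A3 at 94.5% of 888 aligned bases, with common runs of up to 128 and 149 bases. Of all 50-base stretches in SULT1A1 transcripts, 14.7% occurred, in the same orientation, in a transcript of a gene at another position. AC020765.5, which overlaps SULT1A1, was left out of that share. The 60 coding bases (positions 208 to 267) with the most differences between SULT1A1 and SULT1A3 are shown, because reads over such stretches tell these genes apart. Capitals mark the 12 bases that differ between them, and SULT1A2 was not compared over this stretch.
SULT1A1: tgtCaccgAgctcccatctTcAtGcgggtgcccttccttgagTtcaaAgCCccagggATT
SULT1A3: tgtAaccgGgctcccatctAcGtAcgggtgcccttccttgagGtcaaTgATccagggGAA
SULT1A2 had 69.02, 76.64 and 68.88 normalised counts with CDO1, against 69.01, 39.99 and 44.12 in mock, a log2 fold change of 0.52 (limma, adjusted p = 0.061), and it passed without mock replicate 1 (0.75, adjusted p = 0.0103). SULT1A3 was at 0 to 1.97 in all 6 libraries. How reads that match several genes were counted is not given, so these values may not be its level. The SULT1A1, SULT1A2 and SULT1A3 counts summed to 362, 327 and 305 with CDO1, against 470, 386 and 382 in mock, a sum formed after the values were seen. The groups did not overlap in it, and it was 0.803 times the mock level.

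RefSeq promoter windows were at hand for 5 of the 9 genes, PAPSS1, SLC26A2, SLC35B2, SLC35B3 and SULT2B1. The window of SULT2B1 is shown because it is the one gene of these 5 that passed the threshold. It is the part that precedes the annotated start in GENCODE 29, chr19:48551922-48552074 on the plus strand (GRCh38.p14), and capitals mark motif matches.
SULT2B1: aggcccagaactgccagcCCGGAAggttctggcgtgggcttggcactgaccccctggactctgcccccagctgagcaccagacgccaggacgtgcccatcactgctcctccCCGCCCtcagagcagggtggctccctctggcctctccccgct
Both strands of these 153 bases were searched for 7 motifs. The GC box (GGGCGG) matched 1 time, as did the core bound by ETS factors (CCGGAA), and neither overlaps the other. Of all 35116 windows in the RefSeq table, 26.3% hold a GC box and 6.87% the ETS core within their first 153 bases. For the other windows these bases were not cut at a GENCODE start, so their distance to it may differ. The rest of each window was not searched. The TATA box (TATAAA), the antioxidant response element core (TGACNNNGC), the cyclic AMP response element (TGACGTCA), the E-box (CACGTG) and an HNF4 element (CAAAGTCCA) had no match in these letters. In the same first 153 bases 6.37% of the windows hold the TATA box, 5.96% the antioxidant response element core, 0.461% the cyclic AMP response element, 3.05% the E-box and 0.168% the HNF4 element.

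Levels of different genes were compared per kilobase of the longest protein-coding transcript. In CDO1 cells SLC35B2 (1151 ± 47.4) and PAPSS2 (1100 ± 22.8) led and their ranges overlapped, followed by PAPSS1 (740 ± 1.91 normalised counts per kilobase, SD, n = 3). SULT2B1 (398 ± 5.26) and BPNT2 (395 ± 12.2) overlapped next, then came BPNT1 (246 ± 18.9), then SULT1A1 (139 ± 15.2) and SLC35B3 (136 ± 5.08), which overlapped, and SLC26A2 was lowest at 54.1 ± 4.14. In mock cells the order was SLC35B2 (1200 ± 76.3), PAPSS1 (744 ± 35.6), PAPSS2 (662 ± 9.61), BPNT2 (393 ± 24.1), SULT2B1 (252 ± 15.7), BPNT1 (230 ± 12.1), SULT1A1 (192 ± 18.0), SLC35B3 (117 ± 11.4) and SLC26A2 (59.1 ± 4.60). SULT2B1 and BPNT1 were the only neighbours whose ranges overlapped in mock. With merged exons as the length SULT1A1 was below SLC26A2 in both groups, at 29.1 against 50.8 with CDO1 and 40.4 against 55.5 in mock. SULT2B1 was then at 204 with CDO1, below BPNT2 (374) and BPNT1 (216), and at 129 in mock, below BPNT1 (202). PAPSS2 (1064) was then above SLC35B2 (1005) with CDO1.

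**Figure D4:**
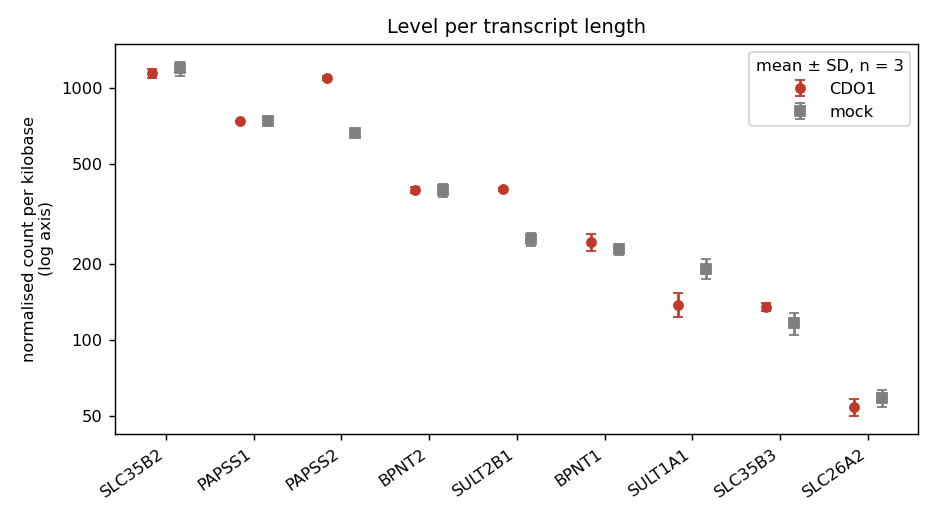
Normalised count per kilobase of the longest protein-coding transcript (log axis) for the 9 genes, ordered by their mock level, with CDO1 as red circles and mock as grey squares, means and SD (n = 3). SLC35B2 is highest in both groups, PAPSS2 lies above PAPSS1 with CDO1 and below it in mock, and SLC26A2 is lowest.

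Other genes of sulfate metabolism were read by role. Of 7 genes of sulfite and sulfate production 2 rose and 1 fell, against 24.0% of all genes tested in either direction, and the median log2 fold change was 0.04. The sulfurtransferase TST had 2039 ± 34.7 normalised counts with CDO1 and 1628 ± 129 in mock (SD, n = 3; log2 fold change 0.33, limma, adjusted p = 0.000357), and GOT2, which transaminates cysteine sulfinate in mitochondria, rose by 0.27 (adjusted p = 0.00155). SUOX, the sulfite oxidase that makes sulfate, was at 383 ± 26.4 with CDO1 and 458 ± 17.1 in mock (SD, n = 3; log2 fold change -0.26, limma, adjusted p = 0.0199), a call that ended without CDO1 replicate 1 (adjusted p = 0.0899) or CDO1 replicate 3 (0.0961). Of 7 other SLC26 and SLC13 transporters tested 1 fell, against 12.7% of all genes tested. It was SLC26A11, a lysosomal member of the family, with a log2 fold change of -0.40 (limma, adjusted p = 0.0035). SLC26A6 stood at -0.17 and SLC26A1, a sulfate exchanger, at 0.20 (adjusted p = 0.0873 and 0.29), and SLC26A6 passed without mock replicate 3 (-0.23, adjusted p = 0.0174).

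Of 6 other cytosolic sulfotransferases tested 1 rose and 1 fell, against 24.0% of all genes in either direction. Their median log2 fold change was 0.08, or 0.52 over the 5 with a mean of at least 10 normalised counts. SULT4A1, a brain-enriched member with little known activity, had 19.97 ± 1.69 normalised counts with CDO1 and 54.0 ± 4.02 in mock (SD, n = 3; log2 fold change -1.39, limma, adjusted p = 5.13e-05). SULT1C3 had 53.25, 21.90 and 48.68 with CDO1, against 13.44, 16.58 and 20.36 in mock, a log2 fold change of 1.17 (limma, adjusted p = 0.00746). The CDO1 libraries differed much among themselves, and the call ended without CDO1 replicate 1 (adjusted p = 0.0692) or CDO1 replicate 3 (0.0586).

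Among Golgi enzymes that spend PAPS on sugar chains and tyrosine, 12 of 27 tested fell and 1 rose, against 12.7% of all genes tested lower and 11.3% higher. Their median log2 fold change was -0.72, the value of NDST2, which had 0, 0 and 2 reads with CDO1 and 6, 1 and 0 reads in mock. Over the 21 genes with a mean of at least 10 normalised counts the median was -0.49, and 11 of them fell. Among all genes with that minimum the share that fell was above 12.7%, so 12.7% is too low a background for these 21. The closer background is the separate fit of the genes with that minimum, whose size and counts higher and lower are given above. HS6ST2, which 6-O-sulfates heparan sulfate, had 151 ± 17.3 normalised counts with CDO1 and 491 ± 16.9 in mock (SD, n = 3; log2 fold change -1.70, limma, adjusted p = 7.6e-11). CHST6, a keratan sulfate sulfotransferase, and CHST15, which acts on chondroitin sulfate, had log2 fold changes of -1.57 and -1.25 (adjusted p = 1.01e-09 and 7.36e-09). The member that rose was GAL3ST2, which sulfates galactose on mucin-type chains, at 602 ± 9.01 with CDO1 and 414 ± 75.3 in mock (SD, n = 3; log2 fold change 0.56, limma, adjusted p = 0.000259). Of 16 sulfatases and their activators 6 fell and 2 rose, again against 12.7% of all genes lower and 11.3% higher. The median log2 fold change was -0.09, or -0.0029 over the 15 with a mean of at least 10. SULF2, which trims heparan sulfate outside the cell, was at 101 ± 3.26 with CDO1 and 257 ± 11.3 in mock (SD, n = 3; log2 fold change -1.34, limma, adjusted p = 7.64e-09). The lysosomal arylsulfatase ARSG fell by 0.74 on the log2 scale (adjusted p = 0.000944), and SUMF1 and SUMF2, the activating enzyme and its paralog, fell by 0.35 and 0.21 (0.00418 and 0.00519). STS, the sulfatase that removes sulfate from steroids and so acts opposite to SULT2B1, was at 247 ± 10.3 with CDO1 and 176 ± 7.68 in mock (SD, n = 3; log2 fold change 0.48, limma, adjusted p = 0.000763). ARSL, an arylsulfatase of the Golgi, also rose (log2 fold change 0.50, adjusted p = 0.00107).

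**Figure D5:**
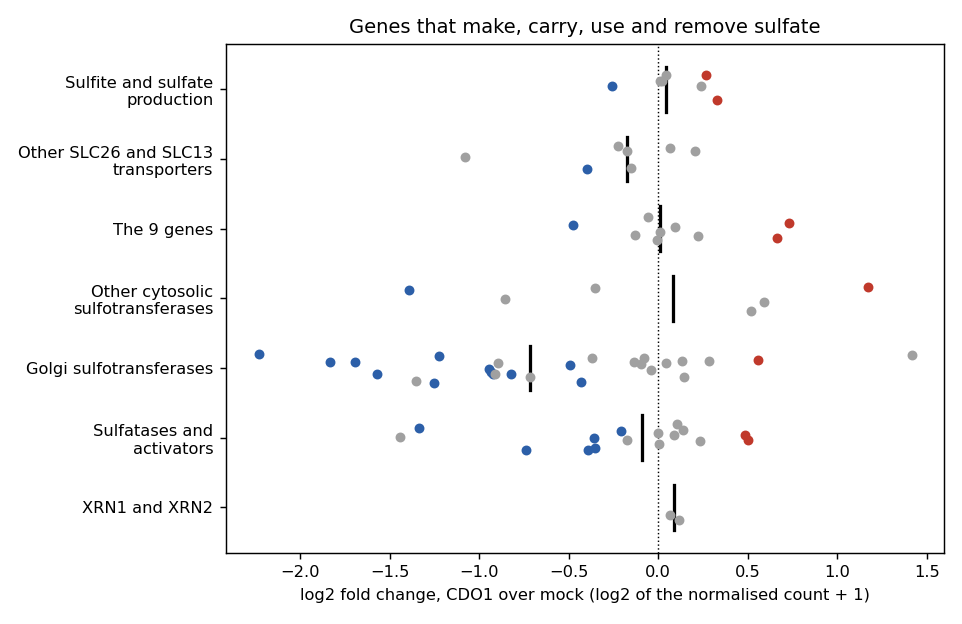
Log2 fold change, CDO1 over mock, of each tested gene of 7 groups of sulfate metabolism; red points rose and blue points fell (limma, adjusted p under 0.05), grey marks genes that did not pass, and each black bar is a median. Golgi sulfotransferases have a median of -0.72 (-0.49 without genes averaging under 10 normalised counts), with 12 of 27 lower, and the 9 genes of activated sulfate supply and cytosolic transfer a median of 0.0075.

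The 3 protein-coding genes whose levels over the 6 libraries were most like those of PAPSS2, by Pearson's r of the log2 values among 10549 genes with a mean of at least 100, were the signalling adaptor GAB2, the desmosomal plakophilin PKP2 and the E-cadherin CDH1, each at r = 0.999. With 2 groups of 3 libraries such a value mostly reflects the difference between groups, and 152 genes had an r of at least 0.99. PKP2 had 3527.18, 3467.20 and 3600.20 normalised counts with CDO1, against 2169.65, 2080.29 and 2105.32 in mock.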

How the data were processed

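Gene expression was measured by RNA sequencing of 6 KM12 libraries. Per the submitters' processing notes, STAR 2.5.1b, DESeq2 1.10.1 and the build GRCh38 were used. The read counter, annotation release and strand setting were not given in the sources used here. Signal values, as deposited, are gene counts divided by a size factor per library, since 100% of values came out as whole reads, within 0.001 of a read, once that factor was undone. The log2 fold change, p-value and adjusted p-value of the deposited table are the authors' comparison, per the file headers.

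Groups were compared with limma 3.58.1 (trend) in R 4.3.3 on log2(normalised count + 1). Genes averaging 1 or more were tested, with Benjamini-Hochberg adjustment at 0.05 over all genes. This scale understates changes of low genes. For all genes past the threshold, edgeR 4.0.16 on the recovered reads gave 5423 of 15184 tested after its own filter, and limma 5229 of 21775. DESeq2 1.42.0 was another alternative, beside other filters, pseudocounts, scalings, a GC correction (lowess span 0.3), the replicate block and each library left out. Ratios were tested with exact permutation tests (scipy 1.17.1).

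Names matched 26577 and GENCODE 29 annotation 26742 identifiers. All 9 genes were named, and of each list the up to 3 genes with the smallest p, with others named beside their values. The members and lists were chosen with earlier results of these data known. List genes with no row were not analysed here. The result of a further marker list is not reported here. Within-group pairs of libraries differed beyond sampling noise (chi-square per degree of freedom 2.10 to 8.29), and the source of that spread was not tested. All 6 libraries were kept. The 9 genes had 228 to 4844 reads per library.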

Additional observations from a re-analysis of the deposited data

How the results depend on the processing

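With at least a 2-fold change as well, 0 members past the threshold remained of 9, and all genes past the threshold numbered 1159; PAPSS2 (0.73), SULT2B1 (0.66) and SULT1A1 (-0.47) lie below that size (limma without the fold minimum, edgeR and DESeq2 gave 3 each). With at least 1.5-fold, 2005 genes passed and SULT1A1 was no longer among the 9 called, and at an adjusted p of 0.01 the count was 3452. The calls of PAPSS2, SULT2B1 and SULT1A1 kept their direction and their side of the threshold under the other filters, pseudocounts, scalings, tools, the GC correction and each library left out. Leaving out 1 library gave 3 to 4 genes called of the 9 and 3887 to 5447 of all genes. Over all alternatives the log2 fold change lay between 0.70 and 0.74 for PAPSS2, 0.63 and 0.75 for SULT2B1, and -0.56 and -0.40 for SULT1A1. In the authors' deposited table the CDO1 level had a log2 fold change of 0.089, not past the threshold; the cause was not tested.

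Among genes that did not pass, the sign of PAPSS1 turned without mock replicate 3 (0.031, with -0.039 the lowest of all alternatives and -0.036 without mock replicate 2), and that of BPNT2 with the GC trend removed (-0.027, with or without the replicate block), with equal library totals (-0.019), and in 3 of the 6 fits that left out a library (range over all 6, -0.029 to 0.056). SULT1A2 passed with a minimum mean of 10 (adjusted p = 0.0461) and with the GC trend removed (0.0228), and SLC26A1 with the latter (0.00469). With at least a 2-fold change 6 of the 27 Golgi sulfotransferases passed, all lower, and 1 of the 16 sulfatases and activators. With at least 1.5-fold 2 of those 16 passed and 0 of the 7 genes of sulfite and sulfate production. The Results give the counts of all genes higher and lower at both cut-offs as the background. The list counts were not tested against it. SUOX did not pass in DESeq2 (0.0537) or in the authors' deposited table (0.0504).

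Replicate numbers are shared between groups, but same-numbered libraries deviated together only weakly (r = 0.0777, 0.299 and 0.0862 for numbers 1 to 3, across 10941 genes), and not every library correlated best with its own number, so the numbers were not taken as pairs. With the replicate block all genes past the threshold numbered 5918 and 3 of the 9, and SLC26A6 passed (limma, adjusted p = 0.0341). The log2 fold changes stayed at 0.73 for PAPSS2, 0.66 for SULT2B1 and -0.47 for SULT1A1. The log2 differences of the ratios stayed at 0.74, 1.14, -0.09 and 0.28. Each number has a library in each group, so the block cannot change these sizes, only their p-values. Genes with few counted reads, such as SULT1A3, allow no statement on a difference.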
